A study of Mus musculus with 4 samples.

Results

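The promoters of 3 nuclear genes of the mitochondrion, Mrpl12, Mrps10 and Bcs1l, were examined for occupancy by the zinc-finger protein Zfp574 in mouse embryonic stem cells. The 3 genes are 3 of 21938 nuclear protein-coding genes, and they were chosen by the peak calls themselves: each had a Cut&Run peak within 500 bp of an annotated transcription start site (TSS). Such a peak was listed for 121 genes (0.552%) when both replicates were combined, for 73 genes (0.333%) in replicate 1 and for 81 genes (0.369%) in replicate 2. That the members had peaks is therefore no finding, and their heights, widths and summit positions are given as a description without a test.

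Antibody-guided nuclease cleavage of chromatin followed by sequencing (Cut&Run) had been run against the V5 epitope in 2 groups of 2 samples. In the AID-Zfp574 line a Blasticidin-P2A-V5-AID cassette had been inserted at the N terminus of the endogenous Zfp574 gene, so the protein carried V5 and an auxin-inducible degron. The OsTir1 parental line, which was itself clonal and had no V5 on Zfp574, was the control. Both lines carried a cassette for ARF16-HA, OsTiR1-3xmYC and mCherry under the EF1a promoter, which allows degradation of the tagged protein by auxin, and both came from the haploid HMSc2 line AN3-12 in its diploid state. The names of the peaks mark the tagged line as not given auxin. That line was grown from single genotyped clones, so the lists describe these lines and 2 libraries of the tagged one. Peak lists carry no expression values, and the identity of the cells was not tested.

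Mitochondrial ribosomes translate the few respiratory chain proteins that mitochondrial DNA encodes, while all their own proteins are encoded in the nucleus and imported. Mrpl12 encodes a protein of the large subunit of that ribosome, in the stalk that contacts translation factors, and Mrps10 encodes a protein of the small subunit. Bcs1l encodes an AAA protein of the inner mitochondrial membrane that inserts the Rieske iron-sulfur protein into respiratory complex III, a late step in the assembly of the complex.

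The sequences below show the stretches of the combined peaks that lie outside annotated transcripts, since the peaks of all 3 genes lay at or just upstream of their first TSS. They are the plus strand of mm10, on which all 3 genes are transcribed from left to right. Capitals mark occurrences, on either strand, of 4 words, namely ATAGAG and CTAGAG, which differ in their first letter, the 6-mer CCATAG and the 8-mer CGCTCTAG. The words had been picked on all peaks of these data with the members included. The Mrpl12 peak holds the 8-mer on the minus strand at chr11:120484606-120484613, which runs past the end of the printed stretch. Only the CTAGAG inside it is therefore in capitals. On this strand the word CCATAGAG, in which the 6-mer CCATAG overlaps the next one by 4 letters, is read as its reverse complement CTCTATGG.
Mrpl12, chr11:120484537-120484612: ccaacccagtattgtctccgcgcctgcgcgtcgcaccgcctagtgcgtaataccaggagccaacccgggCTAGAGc
Mrps10, weaker peak, chr17:47368575-47368668: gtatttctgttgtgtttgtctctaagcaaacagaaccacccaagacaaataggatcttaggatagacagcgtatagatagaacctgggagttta
Mrps10, stronger peak, chr17:47368772-47368886: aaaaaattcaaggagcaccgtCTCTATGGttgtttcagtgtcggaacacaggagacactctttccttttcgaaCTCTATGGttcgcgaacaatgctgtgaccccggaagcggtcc
Bcs1l, between the divergent starts, chr1:74588247-74588288: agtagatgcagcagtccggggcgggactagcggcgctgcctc

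The combined list held 4 peaks at the 3 promoters, replicate 1 held 3 and replicate 2 held 2. Bcs1l was listed in both replicates, Mrpl12 in replicate 1 and not in replicate 2, and Mrps10 in replicate 2 and not in replicate 1. The members thus fell into each class of replicate support, since neither replicate listed the weaker Mrps10 peak. Of all 140 combined peaks, 54 (38.6%) had an overlapping peak in both replicate lists and 34 (24.3%) had none in either. A further 18 (12.9%) were matched by replicate 1 only and 34 (24.3%) by replicate 2 only. A missing peak means that the site did not pass the caller's threshold, not that no reads lay there. The values of the deposited lists led to whole numbers of reads at each summit, and these are given beside the fold enrichment, which is the ratio of tagged to parental signal with 1 added to each. Library sizes solved from the same values were 10.2 and 10.5 M reads for the AID-Zfp574 replicates and 36.0 M for the parental background in each of the 3 lists. Equal background sizes would arise if both replicates were called against 1 shared control, in which case their fold enrichments are not independent in the control, but the methods name only the respective input and do not say whether the parental samples were pooled. Summits of the combined list held 8 to 20 reads with a median of 12. Every member value below therefore rests on a small count, and the 95% exact Poisson intervals cover counting error in the tagged reads alone.

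**Figure D1:**
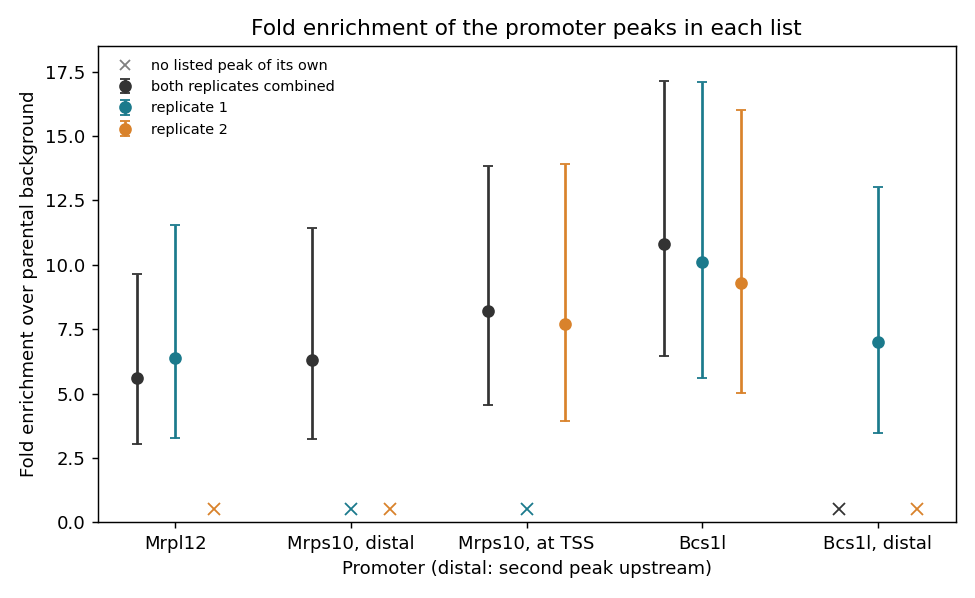
Fold enrichment over the parental background (vertical axis, ratio with 1 added to each side) of each peak at the Mrpl12, Mrps10 and Bcs1l promoters (horizontal axis) in the combined list (black), replicate 1 (blue) and replicate 2 (orange). Bars are 95% Poisson counting intervals and crosses mark lists without a separate peak there. The strongest Bcs1l peak of each list, from 9.29 to 10.8, is above the other members' peaks in that list, while the distal Bcs1l peak of replicate 1 lies at 7.0, and every pair of bars drawn overlaps.

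Bcs1l had the strongest and widest of these peaks. In the combined list it ran over chr1:74587755-74588334, 580 bp, with 10.8-fold enrichment (6.45 to 17.2) from 16 reads at the summit over a background of 1 parental read. In replicate 1 the strongest Bcs1l peak had 10.1-fold enrichment from 12 reads, and in replicate 2 it had 9.29-fold enrichment from 11 reads. The replicates lay close together, with a mean of 9.71 ± 0.589 (SD, n = 2, which leaves out the spread of the control if it was shared), and their counting intervals of 5.61 to 17.1 and 5.02 to 16.0 overlapped over most of their length. By fold enrichment the combined peak was ranked 9 of 140, above 92.1% of the list, and by width it was ranked 2. The same promoter was ranked 9 of 80 in replicate 1 and 18 of 96 in replicate 2.

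The Bcs1l signal was not split in the same way in the 3 lists. Replicate 1 held 2 peaks there, of 319 and 88 bp, separated by 77 bp, where the combined list held 1. The smaller of these, at chr1:74587851-74587938, had 7.0-fold enrichment (3.46 to 13.0) from 8 reads, with a summit 409 bp upstream of the first Bcs1l TSS. Replicate 2 held a single peak of 309 bp, and 308 bp of it were shared with the stronger replicate 1 peak. The shared core was thus nearly the whole of both peaks, while the extension to the left was listed as a separate peak in replicate 1 and not in replicate 2. Replicate peaks covered 70.2% of the combined width in replicate 1 and 53.3% in replicate 2. The strongest summits lay 63, 118 and 44 bp upstream of the first Bcs1l TSS in the combined list, replicate 1 and replicate 2, and so spanned 74 bp.

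The Bcs1l promoter was the only one of the 3 that was shared with another gene. Zfp142, which encodes another zinc-finger protein, is transcribed in the opposite direction, and its outermost TSS (74588246) lies 43 bp from the first Bcs1l TSS (74588289). The combined peak contained 7 annotated Zfp142 starts and 2 of Bcs1l, and 534 of its 580 bp lay on the Zfp142 side of the first Bcs1l TSS. Both Bcs1l starts are of protein-coding transcripts. For Zfp142 only those at 74588025, 74588028 and 74588145 are, so the outermost start above is not a coding one. Each Bcs1l summit, in all 3 lists, fell in untranslated sequence of Zfp142, and each was nearer to an annotated Zfp142 start than to a Bcs1l start. This order depended on the transcript type. In the combined list the nearest Zfp142 start was 20 bp away and the nearest Bcs1l start 63 bp away. That Zfp142 start (74588246) belongs to a nonsense-mediated decay transcript, and the next (74588195) to a retained-intron transcript. Among starts of protein-coding transcripts, the summits of the combined list (74588226) and replicate 2 (74588245) were nearer to Bcs1l. Both replicate 1 summits were nearer to Zfp142. Which of the genes the occupancy concerns cannot be told apart from these positions. Among the 140 combined peaks, 28 had at least 2 protein-coding genes within reach, so a shared window was not particular to Bcs1l.

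Mrps10 had a peak of intermediate strength at its first cluster of starts. The combined peak at chr17:47368772-47368984, 213 bp, had 8.19-fold enrichment (4.54 to 13.8) from 12 summit reads over at most 1 parental read. Replicate 2 listed it at chr17:47368779-47368945, 167 bp, with 7.70-fold enrichment (3.94 to 13.9) from 9 reads, and replicate 1 listed no peak. The summits of both lists lay 4 bp apart, at 87 and 83 bp upstream of the first TSS, the smallest shift between lists at any of the 3 promoters. The peak was ranked 52 of 140 by fold enrichment in the combined list, above 62.9% of it, and 49 of 96 in replicate 2.

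A weaker Mrps10 peak lay further upstream, at chr17:47368575-47368668. It was 94 bp wide and had 6.31-fold enrichment (3.23 to 11.4) from 9 reads, and neither replicate listed it. It was ranked 114 of 140. It was separated from the stronger peak by 103 bp, with 155 bp between the summits, and such neighbours were common, since 58 combined peaks lay within 150 bp of another. No other gene had a TSS within 500 bp of either peak. Of the 10 TSSs annotated for Mrps10, the first cluster begins at 47368887, within the stronger peak. The RefSeq start lies 310 bp downstream of it, which puts the stronger summit 397 bp upstream of the RefSeq start and the nearer edge of the weaker peak 529 bp from it. The weaker peak was thus counted through the first cluster of GENCODE TSSs, from whose start its edge lay 219 bp, and would fall outside the window of the RefSeq start.

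Mrpl12 had the lowest fold enrichment of the members. Its combined peak at chr11:120484537-120484661, 125 bp, had 5.59-fold enrichment (3.02 to 9.64) from 11 summit reads, and its replicate 1 peak at chr11:120484533-120484640, 108 bp, had 6.38-fold enrichment (3.26 to 11.5) from 9 reads. Replicate 2 listed no peak there. The background was 2 parental reads in both lists, against about 1 at the Bcs1l and Mrps10 summits, and its rank depended on how height was measured: 5% of the combined list had a lower fold enrichment, and 30.7% had fewer summit reads. The summits lay 39 and 71 bp upstream of the TSS, 32 bp apart, and 83.2% of the combined peak was covered by that of replicate 1. Near the threshold of the caller, the lowest −log10 q-value in the combined list was 1.42, against 2.97 for Mrpl12, 3.63 for the weaker Mrps10 peak, 7.01 for the stronger and 11.8 for Bcs1l. The upstream neighbour Hgs ends 629 bp before the Mrpl12 TSS on the same strand, and no other gene had a TSS within 500 bp of the peak.

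**Figure D2:**
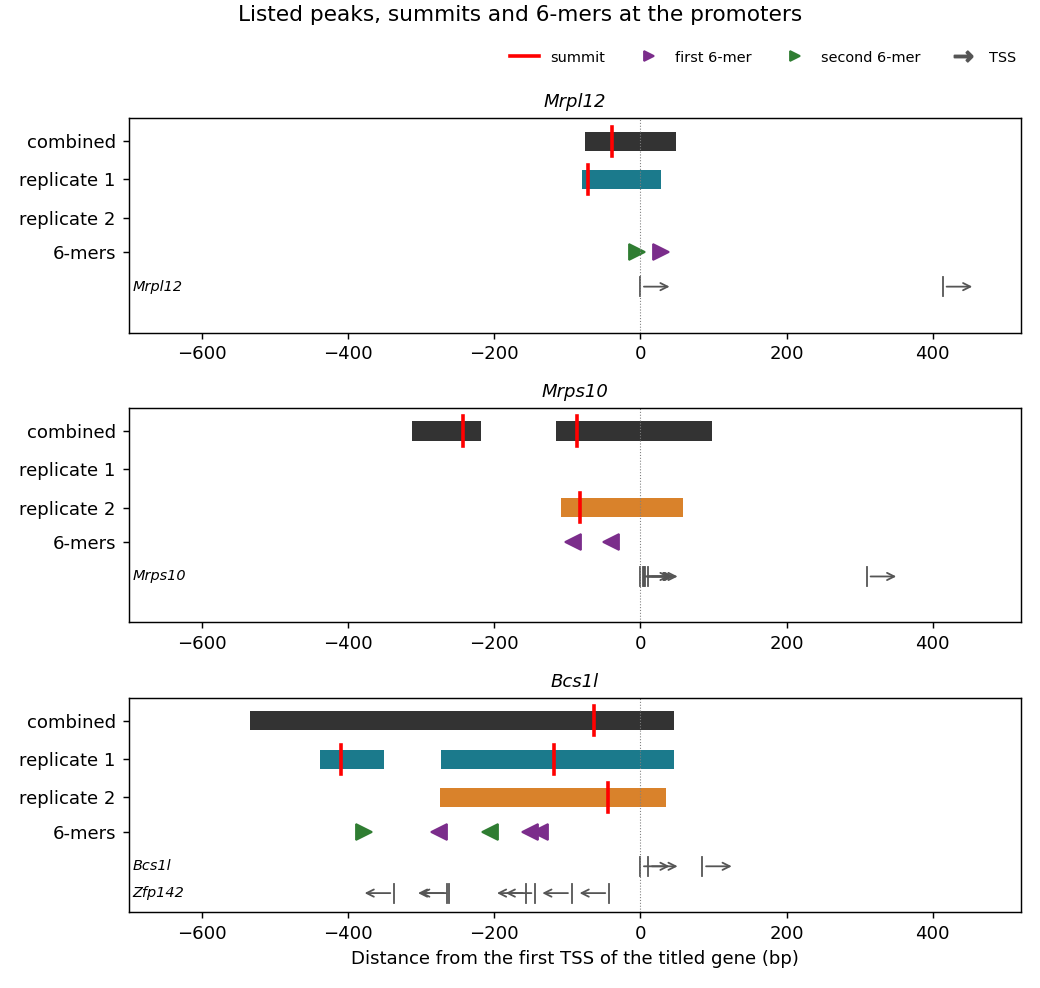
Peaks (bars), summits (red lines), TSSs (arrows in the direction of transcription) and 6-mers within the combined peaks (triangles pointing along the strand that holds them) against the distance in bp from the first TSS of Mrpl12, Mrps10 or Bcs1l. The first 6-mer is ATAGAG and the second is CTAGAG. The strongest summits all lie 39 to 118 bp upstream of the first TSS. At Bcs1l they lie among the annotated starts of Zfp142, which are drawn for transcripts of all types.

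Set against the whole list, the 3 promoters lay at different places in the range of width and fold enrichment. Where both replicates supported a peak, the median was 8.85-fold enrichment, 196.5 bp and 14 summit reads, and Bcs1l exceeded each of these. Where replicate 2 alone supported it, the median was 6.65-fold enrichment and 104 bp, and the stronger Mrps10 peak was above both. Where replicate 1 alone supported it, the median was 7.18-fold enrichment and 122.5 bp, and Mrpl12 was below the first and close to the second.

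**Figure D3:**
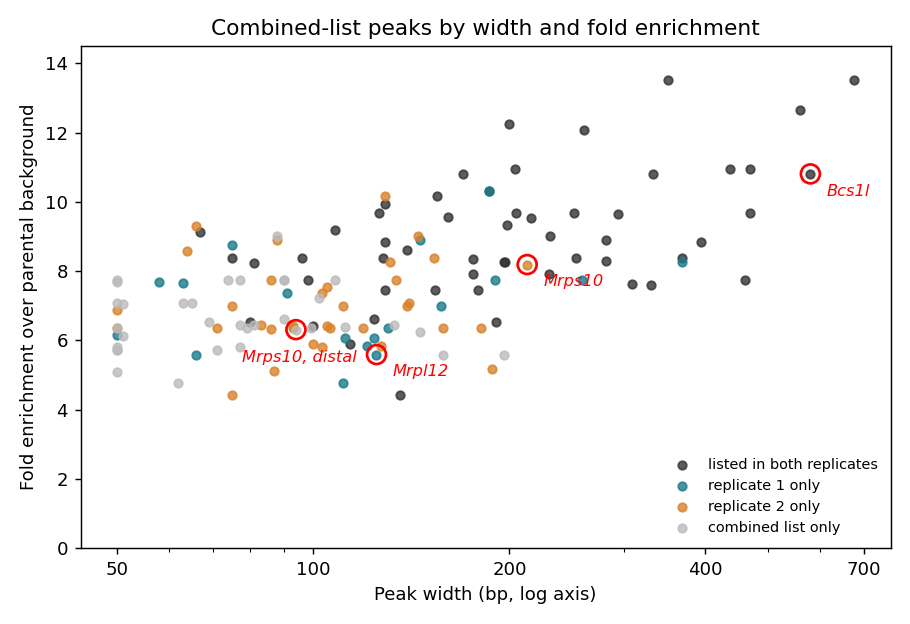
Fold enrichment over the parental background against width (bp, log axis) for the 140 peaks of the combined list, coloured by the replicate lists that hold an overlapping peak, with the 4 peaks at the Mrpl12, Mrps10 and Bcs1l promoters circled. Bcs1l lies at the upper right with 580 bp and 10.8-fold enrichment, and Mrpl12 lies low with 125 bp and 5.59-fold enrichment.

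The combined peaks most like each member were sought only among peaks with the same replicate support. They were ordered by the distance between log2 fold enrichments over the lists that held the member. For Bcs1l, compared with 53 other peaks over 3 lists, the nearest was at Mdc1, a mediator of the DNA damage checkpoint, with 10.95-, 10.2- and 9.37-fold enrichment in the combined list, replicate 1 and replicate 2. Those at Zscan26 and Zkscan5, genes of SCAN-domain zinc-finger proteins, followed. For Mrps10, compared with 33 peaks over 2 lists, the nearest were at Zscan25, at Jagn1 and at Rps9, the gene of a cytosolic ribosomal protein, with 7.73-, 8.90- and 7.53-fold enrichment in the combined list. For Mrpl12, compared with 17 peaks over 2 lists, they were at Necap2, Zfp768 and Zscan12, with 6.14-, 5.59- and 4.78-fold enrichment. None of these 9 nearest peaks was named for a mitochondrial gene of the lists described next, but the rule of equal support limits this. Combined peaks matched in both replicates, such as those at Pars2 and Cox7a2, were not compared with Mrps10 or Mrpl12. The Pars2 peak had 8.29-fold enrichment in the combined list and 7.41-fold in replicate 2, close to the stronger Mrps10 peak. The Cox7a2 peak had 6.41-fold in the combined list and 6.50-fold in replicate 1, close to Mrpl12.

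Other genes of the same mitochondrial systems were read from lists by role. Of 83 genes of mitochondrial ribosomal proteins, Mrpl12 and Mrps10 (2.41%) had a combined peak. Only Mrpl12 (1.20%) had one in replicate 1 and only Mrps10 (1.20%) in replicate 2, so no gene of this list had one in both. The remaining genes had none within 500 bp of a TSS. The nearest to one was Mrpl22, whose TSS lay 67525 bp from a combined peak, so no gene of this list lay just outside the window. Of 24 genes of mitochondrial translation factors and ribosome assembly, 0 had a peak in any list. Of 17 mitochondrial aminoacyl-tRNA synthetase genes 1 had a peak, Pars2, and of 15 genes of complex III and its assembly 1 had a peak, Bcs1l itself. Bcs1l was likewise the only one of 10 genes of mitochondrial AAA proteins. Of 84 genes of the other respiratory chain complexes and ATP synthase, 3 (3.57%) had a combined peak, namely Cox6b1 and Cox7a2, of cytochrome c oxidase, and Ndufb7, of complex I. The share among all genes was 0.552%, but Mrpl12, Mrps10 and Bcs1l were selected on their peaks and all 6 lists were chosen with peaks known, so nothing follows from these shares about the gene classes.

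Among these other genes, Pars2, the mitochondrial prolyl-tRNA synthetase, had a peak in every list. Its fold enrichment was 8.29, 7.46 and 7.41 in the combined list, replicate 1 and replicate 2, from 13, 9 and 9 reads, and the summit lay 115 bp upstream of the TSS in all 3 lists. It was thus listed in both replicates, as Bcs1l was, at a fold enrichment near that of the stronger Mrps10 peak. Cox7a2 had 6.41-, 6.50- and 6.59-fold enrichment in the same order, from 10, 8 and 8 reads, but its replicate peaks, chr9:79759879-79759933 and chr9:79759759-79759853, did not overlap, so neither site was listed in both replicates. Cox6b1 had 5.80-fold enrichment in the combined list and 6.24-fold in replicate 2, and no peak in replicate 1. Ndufb7 had 2 combined peaks, of 7.68- and 6.32-fold enrichment, and each replicate listed a different one of them. No other protein-coding gene had a TSS within reach of any of these peaks.

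The sequence under the peaks was then compared at single sites. The combined peaks held 6 occurrences of ATAGAG and 3 of CTAGAG, shown here with 5 bases on either side, on the strand that holds the word and with the 6-mer in capitals, to show which flanking bases recur between promoters.
Mrps10, chr17:47368788-47368803, minus strand: caaccATAGAGacggt
Mrps10, chr17:47368840-47368855, minus strand: gaaccATAGAGttcga
Bcs1l, chr1:74588006-74588021, minus strand: ggaccATAGAGatgca
Bcs1l, chr1:74588130-74588145, minus strand: aaaccATAGAGtagca
Bcs1l, chr1:74588144-74588159, minus strand: aggacATAGAGgggaa
Mrpl12, chr11:120484634-120484649, plus strand: cccggATAGAGcgtcg
Mrpl12, chr11:120484601-120484616, plus strand: ccgggCTAGAGcggcc
Bcs1l, chr1:74588076-74588091, minus strand: gattcCTAGAGgcgcc
Bcs1l, chr1:74587904-74587919, plus strand: tggagCTAGAGaaact

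Of the 6 ATAGAG sites, 4 lay inside the 9-letter word ACCATAGAG, both of Mrps10 and 2 of the 3 of Bcs1l, whereas the Mrpl12 site did not. This longer word was noticed in the printed sites. It was held by 16 of the 140 combined summit windows of 50 bp on either side. In windows of 213 bp on the TSSs of 21938 protein-coding genes, 0.360% held it on either strand at least 1 time and 0.00912%, or 2 windows, held it at least 2 times, as the stronger Mrps10 peak did. In windows of 580 bp the shares were 0.597% and 0.0319%, and the Bcs1l peak held it 2 times. ATAGAG alone was commoner: 5.67% of the 213-bp windows and 16.5% of the 580-bp windows held it, and 0.269% and 0.173% held it as often as these peaks, 2 and 3 times. All these windows include those of the members.

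Orientation differed between the promoters. At Mrps10 both ATAGAG sites lay on the strand opposite to the gene, with their starts 94 and 42 bp upstream of its first TSS, and the stronger combined summit lay 5 bp from the middle of the first. At Bcs1l all 3 ATAGAG sites lay on the minus strand, which is opposite to Bcs1l and is the strand of Zfp142, 278, 154 and 140 bp upstream of the first Bcs1l TSS. The latter pair lay 89 and 75 bp from the combined summit, so the 50 bp on either side of that summit held none of the 4 words. The same window held both sites at the stronger replicate 1 summit and held neither at the replicate 2 summit. At Mrpl12 both 6-mers lay on the strand of the gene, CTAGAG 7 bp upstream of its TSS and ATAGAG 26 bp downstream of it in the untranslated part of the transcript, 33 bp apart from start to start. The Mrpl12 CTAGAG lay inside the word CGCTCTAG read on the other strand, which 0.470% of TSS windows of 125 bp held. CTAGAG itself was held by 5.96% and ATAGAG by 3.27% of such windows.

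The weaker Mrps10 peak held none of the 4 words, nor did the 42 bases between the Bcs1l and Zfp142 starts. The words had been picked on these same peaks, so their higher shares at the summits are a description and no support for the words. Over all combined peaks, 27.1% of the windows of 50 bp on either side of the summit held ATAGAG and 30% held CTAGAG. Of equally long windows on protein-coding TSSs, 2.67% and 4.76% held them. Both 6-mers occurred in 11.4% of these summit windows and in 0.210% of the TSS windows, and in the window of no member's combined summit. Over whole combined peaks, which are longer, both occurred at Mrpl12 and Bcs1l. Of the combined summits, 61 had ATAGAG within 100 bp, at a median of 42 bp. The member distances to the nearest site, 5 bp at Mrps10, 67 bp at Mrpl12 and 75 bp at Bcs1l, lay on both sides of that median.

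The RefSeq promoter sequences of mm10, 250 bp before to 50 bp after each start, were matched for all 3 genes and Zfp142. That of Zfp142 held ATAGAG 3 times and CTAGAG 1 time, that of Bcs1l held them 2 times and 1 time, and that of Mrpl12 held each 1 time. That of Mrps10 held none of the 4 words, since it is placed at the downstream RefSeq start and does not reach either Mrps10 summit. Of 32817 RefSeq promoters, 9.82% held ATAGAG, 14.6% held CTAGAG and 1.33% held both.

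Base composition differed most between Mrps10 and the other members. The window of 50 bp on either side of the stronger Mrps10 summit had a GC share of 33.7%, the lowest of all 140 combined summit windows, and the window of the weaker peak, with 47.5%, was ranked 11 from the lowest. The Mrpl12 and Bcs1l windows had 65.3% and 61.4%, near the median of 61.4% over the combined list. Combined windows ranged up to 75.2%, and the median over protein-coding TSSs was 58.4%.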

How the data were processed

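Cut&Run was performed on 4 samples, 2 each of AID-Zfp574 and the OsTir1 parental line, grouped by their labels. Per the study's methods, 50-bp single-end reads were mapped to mm10 with Bowtie 0.12.9 (unique, up to 3 mismatches), and MACS2 2.1.2.1 called peaks per replicate and on both replicates combined, against the parental line. Paired-end input and an extension of 300 bp are stated, unlike the reads. Unique mapping removes repeats. The deposited lists give fold enrichment (a ratio) at the summit, −log10 p-values and q-values (neg log10), and the position of each summit. The deposited score, made by the authors' peak caller from the q-value, was not used. No parental list was used, and the replicates count as 2 libraries.

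Summit reads and background were solved from the fold enrichment and −log10 p-value. All reads were within 0.00125 of a whole number. Library sizes rest on a 50-bp read length and the MACS2 mouse genome size. TSSs came from GENCODE M21 and sequence from GRCm38 RefSeq (samtools 1.23.1), and overlaps required 1 bp. Python 3.11.15 and scipy 1.17.1 were used. Of 2000 simulated peaks 100% were solved. Of the gene lists, 1 symbol was not matched. Named genes followed a rule: the members, genes sharing their peaks, listed mitochondrial genes with a peak, and the nearest without. The 3 peaks nearest each member in fold enrichment, among those with the same replicate support, were also named. The members, lists and words were chosen with earlier results of these data known, and ACCATAGAG, summit GC and words in whole peaks were added later. Alternatives were other windows, thresholds, ranks and each replicate alone. No test was run.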

Additional observations from a re-analysis of the deposited data

How the results depend on the processing

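Of 106 values recomputed under other settings, 63 equalled the reported value, 21 changed within limits and 22 moved beyond them. The limits were 1.5-fold for counts of genes or peaks and the 95% counting interval for reads, fold enrichments and shares of peaks. Within them, the 100-bp window left 3 member peaks, without the weaker Mrps10 peak, and 2 of the 3 genes had a peak at the stricter q-value (without Mrpl12), in replicate 1 (without Mrps10) and in replicate 2 (without Mrpl12). At a −log10 q-value of at least 5 the member peaks fell from 4 to 2, the mitochondrial ribosomal genes with a peak from 2 to 1, and the other respiratory chain genes from 3 to 1. With each replicate list alone, the member peaks numbered 2 to 3 and the mitochondrial ribosomal genes 1 to 1, with a different gene in each. The share of peaks below Mrpl12, 5% by fold enrichment, was 10% by q-value, 30.7% by summit reads and 13.75% in the replicate 1 list. For Mrps10 it was 62.9%, 47.9% by summit reads and 48.96% in the replicate 2 list. For Bcs1l it was 92.1%, and 78.1% to 88.75% in the replicate lists. Solving without the added 1 gave 17 reads for Mrpl12, 21 for Mrps10 and 26 for Bcs1l.

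Members with ATAGAG at a summit rose from 1 to 3 with 100 bp on either side and with the whole peak. For CCATAG the count went from 1 to 2 under both, and for CTAGAG from 1 to 2 with the whole peak. On replicate summits, the count for CTAGAG was 0 to 1 and for CGCTCTAG 0 to 0. Counts of 6 to 20 reads at a summit limit every height, and a site under the threshold is not listed. No paired analysis was possible because only peaks of the tagged line were read, the control being their background.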
